A study of Mus musculus with 6 samples.

Results

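The IL-23 and IL-17 axis genes described here are Il23a, Il12b, Il23r, Il17a, Il17f, Il22, Il17ra, Il17rc and Nfkbiz. They were chosen by symbol among the 55487 genes of a deposited count table, and all 9 were found in it. IL-23 is a cytokine of dendritic cells and macrophages, built from a p19 subunit (Il23a) and the p40 subunit (Il12b) that it shares with IL-12. It acts through its receptor on T helper 17 cells, gamma delta T cells and innate lymphoid cells, which then make IL-17A, IL-17F and IL-22. IL-17A and IL-17F bind a receptor of IL-17RA and IL-17RC on keratinocytes and fibroblasts, where the nuclear protein IkappaB-zeta (Nfkbiz) helps to switch on antimicrobial and neutrophil-attracting genes, and in skin the axis is best known from psoriasis and from defence against fungi and bacteria.

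Polyadenylated RNA of whole mouse dorsal skin was sequenced at day 2 in 6 libraries, all given DPCP (diphencyprone), a chemical used to set off contact allergy in skin. The 3 clodrosome libraries ("Codrosome" in the sample labels) came from skin that also received liposomes carrying clodronate, which kills phagocytes that take them up. The 3 encapsome libraries came from skin given DPCP and the matching liposomes without the drug. The strain, age and sex of the mice and the dose and route of the liposomes are not given in the sources used here, and no genetic alteration is named for either group. The labels do not say that each library came from its own animal, so p-values cover the variation among these libraries, which may be technical. Clodronate liposomes are not specific to macrophages among phagocytes, which limits the group as a model of macrophage loss.

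Clodrosome libraries A, B and C held 116965654, 30605600 and 35566351 counts, and encapsome libraries held between 26649396 and 32066256. The 12 macrophage markers were all lower with clodrosome, with a summed level of 789 to 1775 CPM (counts relative to library size) in clodrosome libraries and 3977 to 4735 CPM in encapsome libraries. Keratinocyte markers, which define skin, summed to 41848 to 43536 CPM in clodrosome libraries and 29847 to 36305 CPM in encapsome libraries. The 7 fibroblast markers were also all lower, with sums of 1549 to 2667 CPM in clodrosome libraries and 5106 to 5876 CPM in encapsome libraries. No marker of these lists had 0 counts in all 6 libraries. Genes were called with edgeR's quasi-likelihood test at an adjusted p of 0.05 over 17988 tested genes.

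Of the 9 axis genes, 6 had enough counts to be tested, and 3 of these were called, against 22.4% of all tested genes. Il23a and Nfkbiz rose with clodrosome, where 9.41% of all tested genes were called higher. Il17ra fell, where 13.0% of all tested genes were called lower. Il12b, Il23r and Il17rc were not called. The cytokines Il17a, Il17f and Il22 were at or near the detection limit and were not tested. The median log2 fold change of the 6 tested genes was 0.63, and that of all tested genes was 0.01. The groups did not overlap for 4 of the 6, and they did not overlap for 40.2% of all tested genes.

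Many cytokine messages carry AU-rich elements in the 3′ untranslated region, which proteins such as tristetraprolin bind to promote decay of the message. The heptamer TATTTAT was searched on the transcript strand of 1 principal transcript per gene in the mouse GENCODE annotation of GRCm38, with overlapping matches counted. It was present in 6 of the 9 axis genes and in 26.1% of the 20752 annotated 3′ untranslated regions. A stretch of 30 bases around a match is shown for each of those 6 genes, with the heptamers in capitals, because the cytokine messages held all but 1 of the 16 matches among the 9 genes.
Il23a, GRCm38 chr10:128296183-128296212, minus strand: tagatgatggtTATTTATtcTATTTATaag
Il22, GRCm38 chr10:118209873-118209902, plus strand: atatgtaagttTATTTATtataagtataca
Il17a, GRCm38 chr1:20734204-20734233, plus strand: tttatatgagcTATTTATgaatcTATTTAT
Il17f, GRCm38 chr1:20777242-20777271, minus strand: aaactattataTATTTATgttggtagggga
Il12b, GRCm38 chr11:44413478-44413507, plus strand: agtaatttatgTATTTATtaatttatttct
Il17ra, GRCm38 chr6:120482875-120482904, plus strand: cattccttgaaTATTTATtctgtacctact

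Il23a held 5 heptamers in a 3′ untranslated region of 657 bases, Il22 held 4 in 521 bases, Il17a held 3 in 637 bases and Il17f held 2 in 621 bases. Among regions within 1.5 times the length of Il23a's, 17.8% held at least 1 heptamer and 0.175% held at least as many as Il23a. At least as many as in Il22 were found in 0.497% of regions of like length, at least as many as in Il17a in 1.15%, and at least as many as in Il17f in 3.61%. Il12b held 1 heptamer in 797 bases, where 21.3% of regions of like length held any. Il17ra held 1 in 5075 bases, where 65.4% of regions of like length held any. The heptamer was not found in the regions of Il23r, Il17rc and Nfkbiz, which were 433, 21 and 1355 bases long. Of regions of like length, 11.85%, 1.03% and 32.0% held any. The shorter pentamer ATTTA occurred 7 times in Il17a and 6 times each in Il23a, Il22, Il12b and Il17ra. It occurred 4 times in Nfkbiz, 3 times in Il17f and 0 times in Il23r and Il17rc. A match is a description of the annotated sequence and not evidence of binding.

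Among the cytokine subunits upstream of the axis, Il23a rose and its partner Il12b did not pass the test. Il23a (chromosome 10, 128296139 to 128298752, GRCm38, minus strand), which encodes the p19 subunit specific to IL-23, had 1.31, 1.81 and 2.41 CPM in clodrosome libraries A, B and C, against 0.710, 0.689 and 0.761 CPM in encapsome libraries A, B and C. Every clodrosome library lay above every encapsome library, and the clodrosome libraries were spread more widely. The means were 1.84 ± 0.547 CPM in clodrosome skin and 0.720 ± 0.0373 CPM in encapsome skin (SD, n = 3 each), a 2.51-fold difference (log2 1.33 ± 0.297 SE, edgeR adjusted p = 0.0120). These levels rest on 157, 55 and 87 counts in clodrosome libraries and 22, 22 and 20 counts in encapsome libraries. In whole tissue, a higher or lower level from a change in the number of cells of a type and one from a change in RNA per cell cannot be told apart.

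Il12b (chromosome 11, 44400063 to 44414033, plus strand), the p40 subunit of both IL-12 and IL-23, had 0.937, 1.35 and 1.41 CPM in clodrosome libraries, against 0.517, 1.03 and 0.571 CPM in encapsome libraries. The groups overlapped, because encapsome library B lay above clodrosome library A. The means were 1.23 ± 0.257 CPM in clodrosome skin and 0.707 ± 0.284 CPM in encapsome skin (SD, n = 3 each), with a log2 difference of 0.76 ± 0.344 (SE) that was not called (edgeR adjusted p = 0.147). These levels rest on 112, 41 and 51 counts in clodrosome libraries and 16, 33 and 15 counts in encapsome libraries. Leaving out 1 library at a time gave log2 fold changes from 0.57 (without encapsome library A) to 1.15 (without encapsome library B). The edgeR adjusted p lay between 0.0726 and 0.342 in these fits, so none called Il12b.

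Il12a, the p35 subunit that pairs with p40 to form IL-12, passed the test in the same direction as Il23a. Its level was 0.519, 0.559 and 0.498 CPM in clodrosome libraries, against 0.258, 0.188 and 0.228 CPM in encapsome libraries, with no overlap. The levels of Il12a rest on 62, 17 and 18 counts in clodrosome libraries and only 8, 6 and 6 counts in encapsome libraries. The difference was log2 1.21 ± 0.365 (SE; edgeR adjusted p = 0.0415). This call was lost when any 1 library was left out (edgeR adjusted p between 0.0772 and 0.148). It was also lost with no filter on low counts (edgeR adjusted p = 0.133), and in 9 of the 11 alternatives that gave Il12a a result. Per length, Il12b stood at 0.815, 0.852 and 0.670 times the level of Il23a in clodrosome libraries, against 0.831, 1.71 and 0.857 times in encapsome libraries. Encapsome library B stood apart in this ratio and the other 5 libraries lay close together. The ratio in encapsome library B rests on only 33 counts of Il12b and 22 of Il23a, so counting error alone makes it uncertain. The ranges of the groups overlapped (exact two-sided permutation test, p = 0.2, adjusted p = 0.4 over 4 ratios of axis genes). With 3 libraries a group the smallest p this test can give is 0.1, so it could not have passed the threshold.

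The other partners of the IL-12 and IL-23 family were divided. Of 12 tested genes of this list, 2 were higher and 2 lower with clodrosome (16.7% each, against 9.41% and 13.0% of all tested genes). The median log2 fold change was -0.11. Stat4, a transcription factor downstream of the IL-12 receptor, averaged 5.03 ± 0.877 CPM in clodrosome skin and 2.69 ± 0.760 CPM in encapsome skin (SD, n = 3 each; log2 0.89, edgeR adjusted p = 0.0242), and its call was lost without clodrosome B, clodrosome C, encapsome A or encapsome C (edgeR adjusted p = 0.0511 to 0.0807). Tyk2, the Janus kinase bound to the shared receptor chain of IL-12 and IL-23, averaged 32.6 ± 1.93 CPM in clodrosome skin and 42.9 ± 0.923 CPM in encapsome skin (log2 -0.40, edgeR adjusted p = 0.00513). Ebi3, a subunit of IL-27 and IL-35, also fell (log2 -0.90, edgeR adjusted p = 0.0409), a call that only the fit without clodrosome library A kept among those leaving out a library (edgeR adjusted p = 0.0551 to 0.163 in the other 5). Il12rb1, the shared receptor chain itself, averaged 1.6 ± 0.306 CPM in clodrosome skin and 1.6 ± 0.495 CPM in encapsome skin (log2 0.01, edgeR adjusted p = 0.990), and was chosen with its values seen. Stat3, the main signal carrier of the IL-23 receptor, likewise chosen, showed a log2 difference of -0.03 ± 0.0807 (SE; edgeR adjusted p = 0.854).

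Il23r (chromosome 6, 67422932 to 67491855, minus strand), the receptor chain specific to IL-23, had 0.644, 0.395 and 0.387 CPM in clodrosome libraries, against 0.420, 0.313 and 0.228 CPM in encapsome libraries. The groups overlapped, since encapsome library A lay above clodrosome libraries B and C. The difference was log2 0.62 ± 0.403 (SE; edgeR adjusted p = 0.310), resting on 103 counts in clodrosome libraries together and 29 in encapsome libraries together, and 77 of the clodrosome counts came from the deepest library. Il23r was detected in every library, at 6 to 77 counts.

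Il17a, Il17f and Il22, the effector cytokines of the axis, were barely detected in either group. Il17a (chromosome 1, 20730905 to 20734496, plus strand) had 6, 0 and 2 counts in clodrosome libraries A, B and C, against 2, 0 and 0 counts in encapsome libraries A, B and C. A count of 0 allows up to 0.197 CPM in clodrosome library B and between 0.188 and 0.228 CPM in the encapsome libraries (3 fragments taken as 6 counts, counting error only), so no fold is given. Il17f (chromosome 1, 20777146 to 20790617, minus strand), found next to Il17a, had 16, 2 and 8 counts in clodrosome libraries, against 6, 7 and 2 counts in encapsome libraries. Its level was 0.134, 0.0658 and 0.221 CPM in clodrosome libraries, against 0.194, 0.219 and 0.0761 CPM in encapsome libraries, so the groups covered nearly the same range. Il22 (chromosome 10, 118204942 to 118210047, plus strand), an IL-10 family cytokine that acts on epithelium, had 2, 6 and 0 counts in clodrosome libraries, against 0, 0 and 0 counts in encapsome libraries. No library exceeded the limit that 6 counts set for Il22. Iltifb, a near-identical copy of Il22, had 0 counts in every library, and since reads that match both copies are left out by default, the counts of Il22 are uncertain. Without the filter on low counts, the edgeR adjusted p was 0.840 for Il17a, 0.919 for Il17f and 0.264 for Il22.

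**Figure D1:**
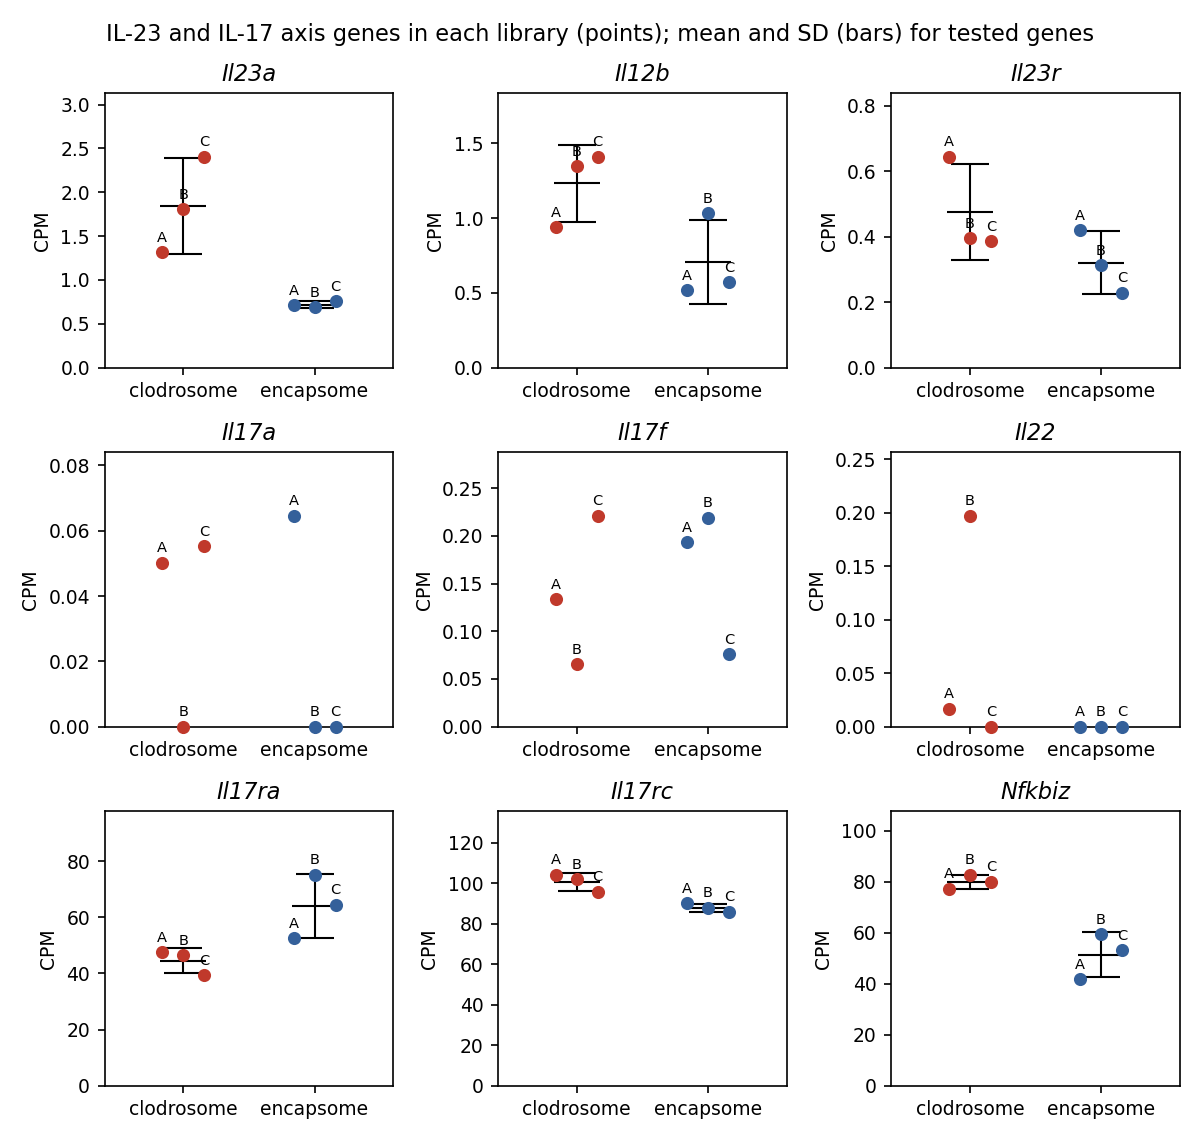
CPM of each of the 9 genes in each library (points, labelled A to C), with clodrosome on the left and encapsome on the right of every panel, and horizontal bars for the mean and SD of the tested genes. Il23a and Nfkbiz were higher and Il17ra was lower in all 3 clodrosome libraries than in any encapsome library, while Il17a, Il17f and Il22 stayed at or below 0.221 CPM throughout.

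Il17ra (chromosome 6, 120463247 to 120487559, plus strand), the common chain of the receptors for the IL-17 family, fell with clodrosome. It had 47.6, 46.6 and 39.4 CPM in clodrosome libraries, against 52.5, 75.2 and 64.5 CPM in encapsome libraries. The groups did not overlap, and encapsome library A lay nearest to the clodrosome libraries. The means were 44.5 ± 4.44 CPM in clodrosome skin and 64.1 ± 11.3 CPM in encapsome skin (SD, n = 3 each), a 1.44-fold lower level (log2 -0.52 ± 0.130 SE, edgeR adjusted p = 0.0189). The call was lost without clodrosome library C, encapsome library B or encapsome library C (edgeR adjusted p = 0.0728, 0.0731 and 0.0590). It was also lost with the share of counts in rRNA genes as a covariate (log2 -0.38, edgeR adjusted p = 0.0817). That share was 0.355%, 0.796% and 0.334% in clodrosome libraries, against 0.481%, 0.845% and 0.788% in encapsome libraries. The macrophage and fibroblast marker sums above were lower in the same libraries as Il17ra, and their part in its fall was not tested.

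Il17rc (chromosome 6, 113471427 to 113483140, plus strand), the second chain of the IL-17A and IL-17F receptor, had 104, 102.1 and 95.8 CPM in clodrosome libraries, against 90.0, 87.8 and 85.9 CPM in encapsome libraries. All 3 clodrosome libraries lay above all 3 encapsome libraries, by a small margin. The difference was log2 0.20 ± 0.0677 (SE; edgeR adjusted p = 0.0676), so Il17rc was not called, and its adjusted p stayed between 0.0534 and 0.207 under the alternatives tried. Per length, Il17rc stood at 7.10, 7.11 and 7.88 times the level of Il17ra in clodrosome libraries, against 5.56, 3.79 and 4.32 times in encapsome libraries. The ratio averaged 7.36 ± 0.445 in clodrosome skin and 4.56 ± 0.910 in encapsome skin (SD, n = 3 each). The groups did not overlap, and the exact two-sided permutation test gave p = 0.1, the smallest it can give (adjusted p = 0.4 over 4 ratios).

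Of the 5 tested genes among the other IL-17 family cytokines and receptors, 1 was called (20%, against 22.4% of all tested genes). Il17re, which pairs with IL-17RA to form the epithelial receptor for IL-17C, rose to 24.2 ± 1.3 CPM in clodrosome skin, against 16.2 ± 2.04 CPM in encapsome skin (SD, n = 3 each; log2 0.58, edgeR adjusted p = 0.00529). Its level was 24.8, 22.7 and 25.1 CPM in clodrosome libraries, against 18.2, 14.2 and 16.2 CPM in encapsome libraries, with no overlap. Il17rb, the receptor chain for IL-17E, averaged 2.11 ± 0.329 CPM in clodrosome skin and 1.10 ± 0.458 CPM in encapsome skin but was not called (log2 0.97, edgeR adjusted p = 0.0558), and was chosen with its values seen. It was called without encapsome library C (log2 1.26, edgeR adjusted p = 0.0399), with no filter on low counts (edgeR adjusted p = 0.00603), with halved counts (edgeR adjusted p = 0.0383) and by DESeq2 (adjusted p = 0.0356). Il25, which encodes IL-17E, had 0 counts in all 6 libraries.

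The receptor genes for IL-22 showed 1 call in 3 (33.3%, against 22.4% of all tested genes). Il10rb, the chain that IL-22 shares with IL-10, fell to 32.3 ± 1.54 CPM in clodrosome skin, against 57.2 ± 5.59 CPM in encapsome skin (SD, n = 3 each; log2 -0.82, edgeR adjusted p = 3.24e-04). Its level was 33.5, 30.6 and 32.7 CPM in clodrosome libraries, against 62.0, 51.1 and 58.6 CPM in encapsome libraries, with no overlap, and macrophage markers were lower in the same libraries, with a part in this fall that was not tested. Il22ra1, the chain specific to IL-22 and its relatives on epithelium, had a log2 fold change of 0.06 (edgeR adjusted p = 0.788), and was chosen with its values seen.

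Nfkbiz (chromosome 16, 55811375 to 55838899, minus strand), the nuclear co-regulator of NF-kappaB that IL-17 induces in keratinocytes, rose with clodrosome. It had 77.1, 82.7 and 79.99 CPM in clodrosome libraries, against 41.7, 59.4 and 53.0 CPM in encapsome libraries. The clodrosome libraries lay close together and above all encapsome libraries. The means were 79.9 ± 2.77 CPM in clodrosome skin and 51.4 ± 8.92 CPM in encapsome skin (SD, n = 3 each), a 1.56-fold difference (log2 0.64 ± 0.117 SE, edgeR adjusted p = 0.00467). Keratinocyte markers, of which 5 of 10 tested genes were called higher and 3 lower, had higher sums in the same libraries, and their part in this result was not tested. Nfkbiz is also induced by other signals, such as IL-1 and bacterial products, and these data hold no measure of which signal acted.

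Per kilobase of gene length, the 9 genes covered a wide range of levels. In clodrosome skin the order, in RPKM (CPM per kilobase), was Il17rc (37.7), Nfkbiz (15.9), Il17ra (5.14), Il23a (0.820), Il12b (0.626), Il23r (0.191), Il17f (0.0694), Il22 (0.0643) and Il17a (0.0300 RPKM). The ranges of Il23a and Il12b overlapped, as did those of the lowest cytokines. In encapsome skin the order was Il17rc (32.9 RPKM), Nfkbiz (10.2), Il17ra (7.40), Il12b (0.359), Il23a (0.320), Il23r (0.129), Il17f (0.0806), Il17a (0.0184) and Il22 (0 RPKM). There the ranges of Nfkbiz and Il17ra overlapped, as did those of Il12b and Il23a and those of Il23r and Il17f. The receptor chains for IL-17 and Nfkbiz thus stood far above the subunits of IL-23, and these above the effector cytokines, in both groups.

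**Figure D2:**
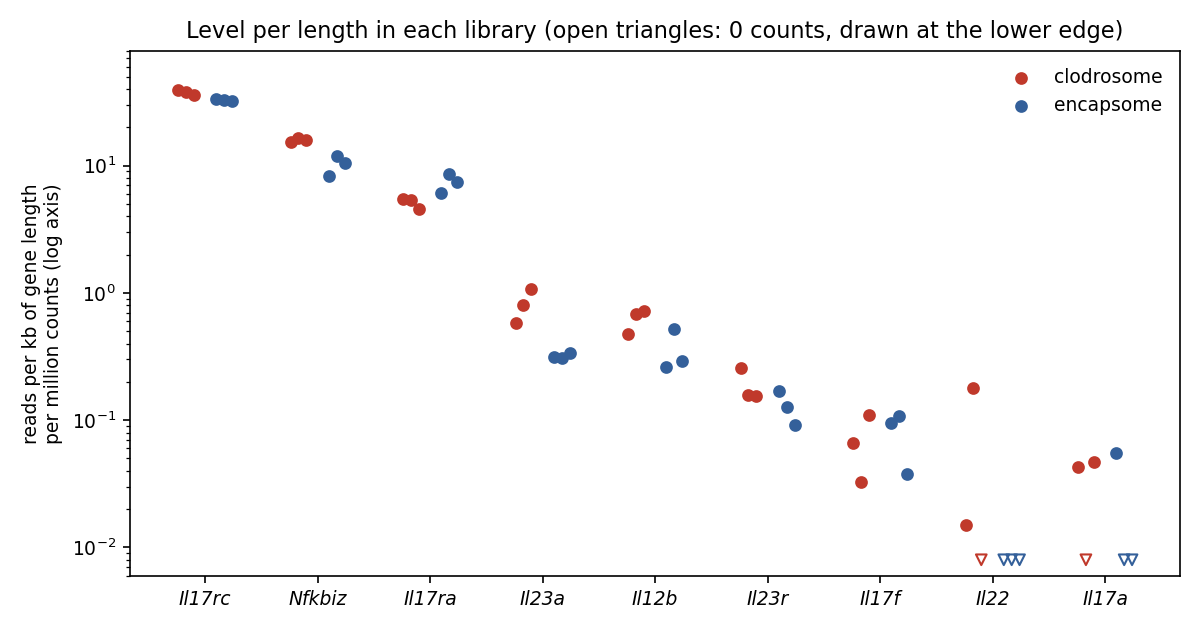
Level of each gene per kilobase of gene length in each library (RPKM, log axis), with clodrosome to the left of encapsome for each gene and open triangles at the lower edge for 0 counts. Il17rc, Nfkbiz and Il17ra lay at or above 4.55 RPKM in every library and Il23a and Il12b between 0.263 and 1.07 RPKM, while the points of Il23r, Il17f and Il22 partly overlapped below them.

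Among the genes that signal below the IL-17 receptor, calls were no more frequent than over all tested genes (15% against 22.4%). Of 20 tested adaptors and regulators of IL-17 signalling, 3 were higher and 0 lower with clodrosome, with a median log2 fold change of 0.07. The 3 were Tnfaip3 (A20), Nfkbia and Tnip1, inhibitors of NF-kappaB signalling that are themselves induced by it. Tnfaip3 had 55.6, 55.7 and 51.9 CPM in clodrosome libraries, against 35.0, 38.1 and 44.8 CPM in encapsome libraries, with no overlap (log2 0.47, edgeR adjusted p = 0.00822). Nfkbia averaged 146 ± 14.7 CPM in clodrosome skin and 100.5 ± 15.9 CPM in encapsome skin (SD, n = 3 each; log2 0.54, edgeR adjusted p = 0.0122). Tnip1 averaged 56.3 ± 5.54 CPM in clodrosome skin and 41.6 ± 3.65 CPM in encapsome skin (log2 0.44, edgeR adjusted p = 0.0118). Traf3ip2, which encodes the adaptor Act1 that binds the IL-17 receptor directly, had a log2 fold change of 0.24 (edgeR adjusted p = 0.160), was chosen with its values seen, and was called without clodrosome library B (log2 0.34, edgeR adjusted p = 0.0338).

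**Figure D3:**
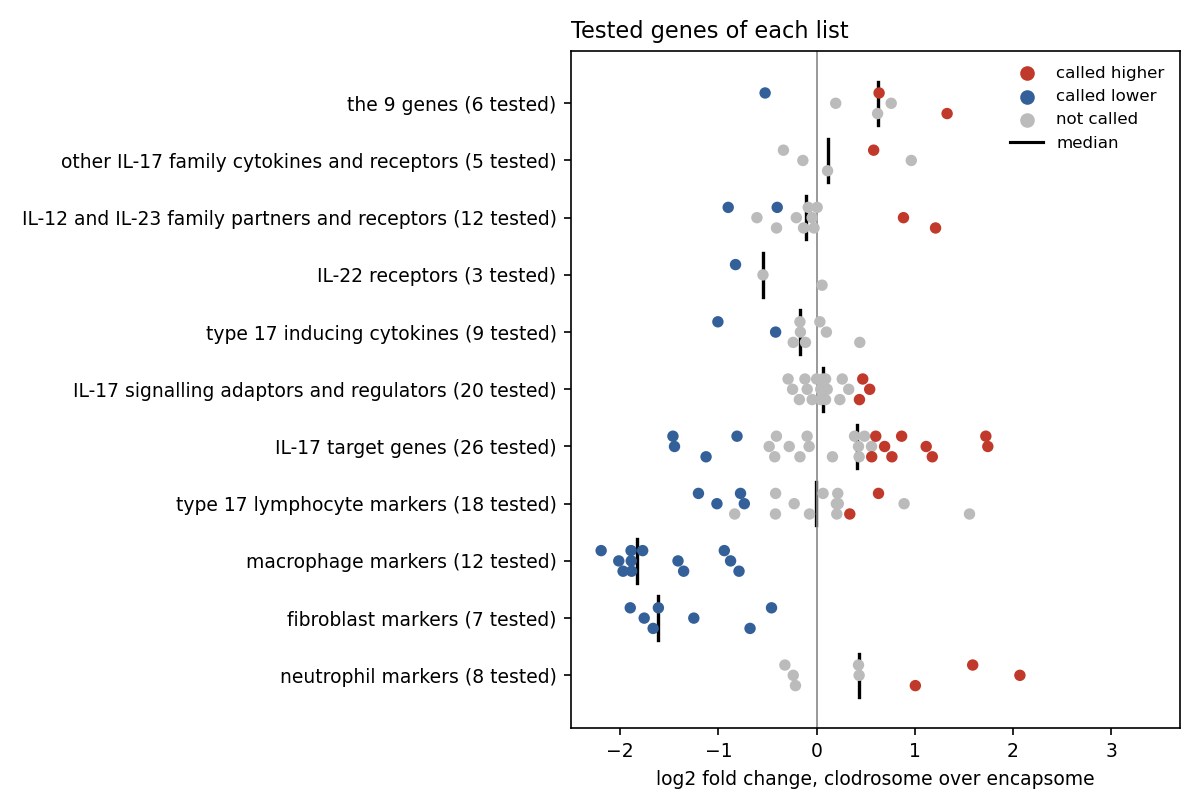
Log2 fold change, clodrosome over encapsome, of every tested gene of the axis, of the pathway lists and of selected marker lists (points, coloured by call), with the median of each list as a black bar. The IL-17 target genes lay on both sides of 0 with a median of 0.41, and the macrophage and fibroblast markers all lay below 0.

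IL-17 target genes, a list of chemokines, growth factors and antimicrobial proteins that IL-17 induces in epithelium, moved in both directions. Of 26 tested genes, 9 were higher and 4 lower with clodrosome (34.6% and 15.4%, against 9.41% and 13.0% of all tested genes). The share called lower was thus near that of all genes. The median log2 fold change was 0.41 beside 0.01 over all genes tested. Lcn2, an iron-sequestering antimicrobial protein, had 903, 1298 and 1005 CPM in clodrosome libraries, against 280.0, 334 and 355 CPM in encapsome libraries, with no overlap (log2 1.72 ± 0.147 SE, edgeR adjusted p = 1.23e-04). Slpi, a protease inhibitor with antimicrobial activity, averaged 259 ± 21.7 CPM in clodrosome skin and 120 ± 11.2 CPM in encapsome skin (SD, n = 3 each; log2 1.12, edgeR adjusted p = 1.27e-04). Cxcl2, a neutrophil-attracting chemokine, had 242, 188 and 173 CPM in clodrosome libraries, against 67.5, 87.4 and 112 CPM in encapsome libraries (log2 1.18, edgeR adjusted p = 0.00200). Every clodrosome library lay above every encapsome library for these 3 genes.

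The other 6 targets that rose are named here with their values seen. They were Csf3, the growth factor of neutrophils (log2 1.74), Ptgs2 (0.87), Cxcl1 (0.77), the beta-defensins Defb4 (0.69) and Defb14 (0.56), and the metalloreductase Steap4 (0.60). The Cxcl1 call was lost without clodrosome A, clodrosome B, encapsome A or encapsome C (edgeR adjusted p = 0.0550 to 0.105), and the Defb14 call without any 1 encapsome library (edgeR adjusted p = 0.0914 to 0.139). The 4 that fell were Il24, Il19, the matrix metalloproteinase Mmp3 and the chemokine Cxcl5. Il24, an IL-20 family cytokine, had 30.6, 39.6 and 44.7 CPM in clodrosome libraries, against 65.8, 65.3 and 69.5 CPM in encapsome libraries, with no overlap (log2 -0.81, edgeR adjusted p = 0.00199). The other falls, named with their values seen, were -1.13 for Il19, -1.45 for Mmp3 and -1.46 for Cxcl5 on the log2 scale. The Il19 call was lost without clodrosome library B or encapsome library A or B (edgeR adjusted p = 0.0550 to 0.103). S100a8 and S100a9, the subunits of calprotectin, each had a log2 fold change of 0.43 and were not called (edgeR adjusted p = 0.111 and 0.124). Both were called by DESeq2 (adjusted p = 0.0269 for S100a8 and 0.0320 for S100a9), with no filter on low counts (edgeR adjusted p = 6.92e-05 and 1.21e-04) and with the rRNA covariate (edgeR adjusted p = 0.00558 and 0.00323). S100a8 was also called without encapsome library B (edgeR adjusted p = 0.0340). The epithelial chemokine Ccl20 was not called either (log2 0.39, edgeR adjusted p = 0.356), and the targets Csf2 and Il20 were too low to be tested.

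**Figure D4:**
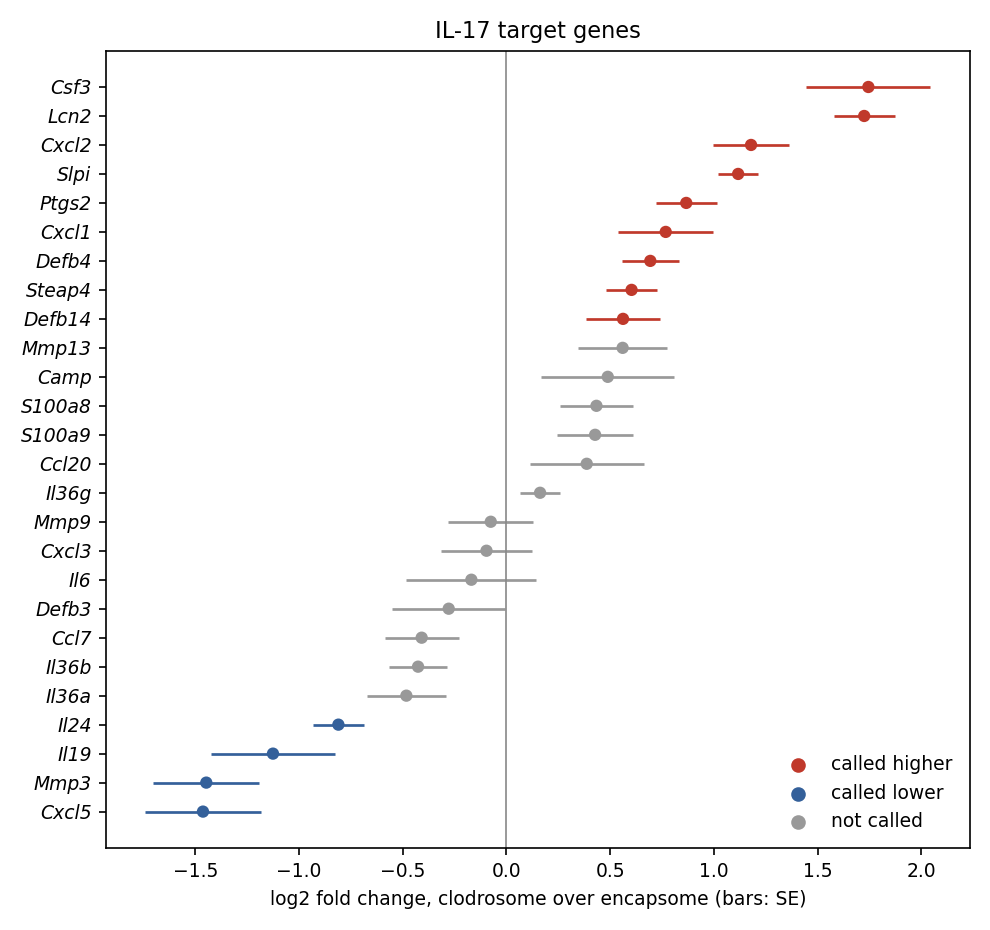
Log2 fold change, clodrosome over encapsome, of the 26 tested IL-17 target genes, with bars for the SE and colours for the call. The called genes ran from 1.74 for Csf3 to -1.46 for Cxcl5.

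Several of these targets are also expressed by cells other than epithelium, neutrophils among them. Of 8 tested neutrophil markers, 3 were higher and 0 lower with clodrosome (37.5% higher, against 9.41% of all tested genes). The median log2 fold change of these markers was 0.43. Their summed level was 1414 to 1983 CPM in clodrosome libraries and 1012 to 1627 CPM in encapsome libraries, so the sums overlapped. S100a8 and S100a9 belong to both lists and made up most of these sums. Their means were 518 and 828 CPM in clodrosome skin and 383 and 615 CPM in encapsome skin. Mmp3 is a product of fibroblasts, whose markers fell together as given above. The part of these cells in the target gene values was not tested.

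The genes that mark IL-17 producing lymphocytes gave no common direction. Of 18 tested markers of type 17 lymphocytes, 2 were higher and 4 lower (11.1% and 22.2%, against 9.41% and 13.0% of all tested genes). The median log2 fold change was -0.00. Maf averaged 65.6 ± 10.7 CPM in clodrosome skin and 133 ± 12.3 CPM in encapsome skin (SD, n = 3 each; log2 -1.01, edgeR adjusted p = 5.72e-04). Il7r (log2 -1.20, edgeR adjusted p = 0.00316) and Il1r1 (log2 -0.77, edgeR adjusted p = 0.00297) also fell, and Tmem176b rose (log2 0.34, edgeR adjusted p = 0.00790). These genes are also used by other skin cells, Maf by macrophages and Il1r1 by fibroblasts among them. Of 10 general T cell markers, 1 was higher and 1 lower, namely Lck and Cd28 (20% called, against 22.4% of all tested genes). Each call was lost in 4 of the 6 fits that leave out a library (edgeR adjusted p = 0.0515 to 0.123). The median log2 fold change of these markers was 0.37, beside 0.01 over all genes tested. Their sums were 36.2 to 47.9 CPM in clodrosome libraries and 39.8 to 47.3 CPM in encapsome libraries. Cd4 had the largest mean of the list in encapsome skin, at 11.9 ± 4.68 CPM, against 7.44 ± 1.26 CPM in clodrosome skin (SD, n = 3 each). Cd4 was not called (log2 -0.67, edgeR adjusted p = 0.0870).

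In a list of cytokines that induce type 17 cells or act on T cells more widely, Il15 among the latter, calls were about as frequent as over all tested genes (22.4%). Of 9 tested genes, 0 were higher and 2 were lower, with a median log2 fold change of -0.16. Tgfb1 had 45.5, 55.5 and 43.7 CPM in clodrosome libraries, against 93.7, 96.1 and 100.3 CPM in encapsome libraries, with no overlap (log2 -1.0 ± 0.0959 SE, edgeR adjusted p = 1.92e-04). Il15 was lower as well (log2 -0.42, edgeR adjusted p = 0.0400), a call lost without any 1 library but clodrosome B (edgeR adjusted p = 0.0653 to 0.129). Macrophage marker sums were lower in the same libraries as Tgfb1 and Il15, and their part in these values was not tested. Il1b, chosen with its values seen, had 314, 298 and 221 CPM in clodrosome libraries, against 146, 268 and 200.1 CPM in encapsome libraries. The groups overlapped for Il1b, and it was not called (log2 0.44, edgeR adjusted p = 0.157), although it was called without encapsome library B (log2 0.68, edgeR adjusted p = 0.0453) and with no filter on low counts (edgeR adjusted p = 3.00e-05).

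For the 4 axis genes whose mean over all libraries reached 1 CPM, the genes of most similar profile were sought among 11639 candidates by the root mean square difference of centred log2 CPM over the 6 libraries. The measure is a description, since all genes share the libraries and their depths. For Il23a these were Sln, Smtnl1 and Ccr7, at 0.139, 0.160 and 0.165 on the log2 scale. Ccr7, the receptor that guides dendritic cells to lymph nodes, had 16.3, 18.3 and 23.1 CPM in clodrosome libraries, against 8.30, 8.77 and 10.5 CPM in encapsome libraries. Sln and Smtnl1 are genes of muscle, and skeletal muscle markers summed to 3872 to 5285 CPM in clodrosome libraries and 2760 to 3265 CPM in encapsome libraries. Dendritic and Langerhans cell markers summed to 399 to 457 CPM in clodrosome libraries and 430 to 445 CPM in encapsome libraries. Epcam and Fscn1 made up most of these sums, with means of 163 and 156 CPM in clodrosome skin and 143 and 147 CPM in encapsome skin. The sums thus say little about the other markers of the list. Of 12 tested, 1 was higher and 2 were lower (8.33% and 16.7%, against 9.41% and 13.0% of all tested genes). Ccr7 was the 1 that rose (log2 1.07, edgeR adjusted p = 0.00135). Cd209a (log2 -1.63, edgeR adjusted p = 3.09e-04) and Itgax (log2 -0.95, edgeR adjusted p = 1.53e-04) fell. The part of any of these cells in the Il23a value was not tested.

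For Nfkbiz the nearest genes were Osm (0.0492), a cytokine of the IL-6 family, Klhl29 (0.0585) and Robo4 (0.0597). For Il17ra they were Rara (0.0539), a retinoic acid receptor, Gda (0.0576) and Zyx (0.0580). For Il17rc they were Wsb1 (0.00899), Tiam1 (0.0200) and Carmil1 (0.0205). These sizes are not compared between axis genes, because they also depend on how much each gene varied and on its counts.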

How the data were processed

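The authors deposited unnormalised counts of reads for each gene, from featureCounts 1.6.2 and an Ensembl gene set for GRCm38, per the file headers, with each gene's length. The submitters' processing notes also name Trimmomatic 0.36, HISAT2 2.2.1, StringTie 2.2.1, DESeq2 1.34.0 and the mm10 build. The header sets no option for pairs or strand, so read ends are counted singly and antisense reads cannot be told apart; no exon of the 9 genes overlaps another gene. Group membership of the 6 columns was read from their names, and the letters A to C follow column order.

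CPM (TMM factors) and RPKM were computed here from the deposited counts. Genes kept by filterByExpr (minimum count 10, minimum total 15) entered edgeR 4.0.16 (R 4.3.3; glmQLFit and glmQLFTest), with group as the only term and Benjamini-Hochberg adjustment over 17988 genes. The procedure was tested on simulated data in which 200 genes changed 2-fold. It recovered 81.2% of those changed genes that passed the filter on the simulated counts, where 17715 genes were kept, and 4.19% of its calls were false. The simulated counts followed the trended dispersion, without the spread of dispersion among genes of like level. Far fewer genes changed there than were called in the real data, so the check does not cover changes that wide. Alternatives were other filters, size factors, DESeq2 1.42.0, halved counts, thinning, an rRNA covariate and leaving out each library.

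The 9 genes, the lists and the rule for naming genes were chosen with earlier results of these data known. The rule names all 9 genes, up to 4 called genes of each list with the smallest p, and the 3 most similar genes (mean of at least 5 CPM) of each axis gene with a mean of at least 1 CPM. Other genes are named as chosen with their values seen. A gene of the type 17 lymphocyte list is not reported here.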

Additional observations from a re-analysis of the deposited data

How the results depend on the processing

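Under the 13 alternatives, 72 results of the 6 tested axis genes kept their direction and their side of the threshold, and 4 lost the call, all of Il17ra. Il23a and Nfkbiz were called in all 13, with an edgeR adjusted p up to 0.0493 for Il23a when a library was left out. Of 944 results over 73 genes (these 6, those the naming rule takes and those named with values seen), 860 kept their side of the threshold, 63 lost a call, 14 gained one and 7 changed sign. The sign changes were of genes near 0, namely Il22ra1 (-0.10 with the rRNA covariate, -0.0222 to 0.157 leaving out a library), Il12rb1 (-0.23 to 0.15 leaving out a library, and up to 0.30 over all alternatives) and Stat3 (-0.0899 to 0.0271 leaving out a library), all as log2 fold changes. The count of all genes called higher lay between 821 and 1964 when a library was left out. With the rRNA covariate, 0 axis genes were called lower, and 0 to 1 when a library was left out. Of the other IL-17 family genes, 2 were higher with no filter, with DESeq2 and with halved counts (1 to 2 leaving out a library), and 1 was lower with the rRNA covariate. Of the IL-12 and IL-23 partners, 1 was higher with no filter, the 1 CPM filter, DESeq2, halved counts or the rRNA covariate (0 to 1 leaving out a library), and 1 was lower with that covariate (1 to 2 leaving out a library). Of the listed cytokines that induce type 17 cells or act on T cells more widely, 1 was higher with no filter (0 to 1 leaving out a library). In that list 1 was lower with no filter or the covariate (1 to 2 leaving out a library). With no filter, 5 adaptors were higher and 1 lower (0 to 1 leaving out a library), and 7 IL-17 targets were lower. Without length correction, 5 of the 9 axis genes kept their place in the encapsome order. The cause of these changes was not tested. Depth limits Il17a, Il17f and Il22 most, at up to 16 counts a library.

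No paired analysis was possible because the columns are numbered differently from the titles of the samples, so no column can be given a replicate number.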
